A study of Homo sapiens with 6 samples.

Results

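The genes described here are 33 enzymes and regulators of sterol and fatty acid synthesis, chosen by symbol. They comprise the mevalonate and cholesterol enzymes, the fatty acid and glycerolipid enzymes, and the regulators of the SREBP transcription factors. All 33 symbols were found among the 55882 rows of the deposited count table, and all 33 passed the filter on low counts, which left 22352 genes. Polyadenylated RNA was sequenced with a stranded kit from DIvA cells, a derivative of the human osteosarcoma line U2OS that carries an AsiSI restriction enzyme which enters the nucleus and cuts DNA when 4-hydroxytamoxifen (4-OHT) is added. The groups were 3 libraries of p53 KO cells and 3 libraries of p53 WT cells, and all 6 came from cells given 300 nM 4-OHT for 5 h in medium with serum. No untreated cells were analysed here, so each value is a difference between genotypes under DNA cutting. The labels do not give the number of knockout clones or say whether replicates were separate cultures, so the p-values measure only the spread between these libraries.

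Total counts were 20393909 to 72621732 in p53 KO libraries and 24347609 to 79767519 in p53 WT libraries, and levels are counts scaled to library size (CPM) with TMM factors. CDKN1A, the p53-induced cell cycle inhibitor, had 49, 41.8 and 46.5 CPM in p53 KO replicates 1, 2 and 3, against 572, 520.2 and 532 CPM in p53 WT. MDM2, the p53-induced ubiquitin ligase, had 68.9, 60.9 and 42.9 CPM in p53 KO, against 187, 242 and 233 CPM in p53 WT, so both genes followed the labels. The mesenchymal genes VIM, COL1A1 and SPARC were abundant in all 6 libraries, while the bone markers SP7 and IBSP had no count in any. The other markers of that list were low, with at most 0.852 CPM for COL1A2, 2.70 for BGLAP, 8.12 for ALPL and 13.2 for RUNX2. Of 9 mesenchymal and osteoblast markers 7 were tested. In p53 KO 4 were called lower (VIM, SPARC, RUNX2 and ALPL) and 1 higher (COL1A1). Of all tested genes 14.4% were called lower and 12.1% higher. The summed level of the 9 was 3297 to 3738 CPM in p53 KO and 5017 to 5652 CPM in p53 WT. Of 5 epithelial markers 1, KRT8, was called higher (20%, against 12.1% of all tested genes). Their summed level was 575 to 699.5 CPM in p53 KO and 489 to 547 CPM in p53 WT. The 5 hepatocyte markers summed to 7.47 to 9.87 CPM in p53 KO and 24.8 to 26.9 CPM in p53 WT, nearly all of it SERPINA1, and ALB had no count in any p53 KO library. The 5 leukocyte markers summed to 1.12 to 1.3 CPM in p53 KO and 1.4 to 2.25 CPM in p53 WT, with LYZ at 0 in all libraries. The 5 adipocyte markers had no count in p53 KO and 0.0411 to 0.267 CPM in p53 WT, with LEP and FABP4 at 0 in all libraries. The part of these marker differences in the results below was not tested. In bulk RNA, fewer cells of a type and less RNA per cell cannot be told apart.

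Cholesterol is built from acetyl-CoA through mevalonate, farnesyl diphosphate, squalene and lanosterol, and fatty acids are built from the same acetyl-CoA after carboxylation. Most of these enzymes are transcribed under SREBP proteins, membrane-bound factors that the escort protein SCAP carries from the endoplasmic reticulum to the Golgi when sterols are scarce. INSIG proteins hold SCAP back when sterols are plentiful, and INSIG1 is itself an SREBP target, which makes it part of a feedback loop. SREBF2 encodes the form that mainly drives sterol genes, and SREBF1 encodes the forms that mainly drive fatty acid genes. In other cell systems p53 has been described to restrain SREBP activity.

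In p53 KO cells 8 of 18 sterol enzymes fell and 1 rose, while among 9 fatty acid and lipid enzymes 2 fell and 1 rose. Of the 33 members 16 were called, 13 lower and 3 higher in p53 KO, at an adjusted p under 0.05 (edgeR quasi-likelihood test, adjusted over all 22352 genes). Across all tested genes 26.5% were called, 14.4% lower and 12.1% higher. The 8 sterol enzymes called lower were HMGCS1, FDPS, FDFT1, SQLE, LSS, CYP51A1, MSMO1 and SC5D, and EBP was the sterol enzyme called higher. Among 9 fatty acid and lipid enzymes SCD and LPIN1 were called lower, ACACA was called higher and 6 were not called. Among 6 regulators and carriers INSIG1, SREBF2 and STARD4 were called lower and INSIG2 higher. The largest differences in size were near 2-fold, in MSMO1, INSIG1 and SCD downward and in INSIG2 and EBP upward.

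**Figure D1:**
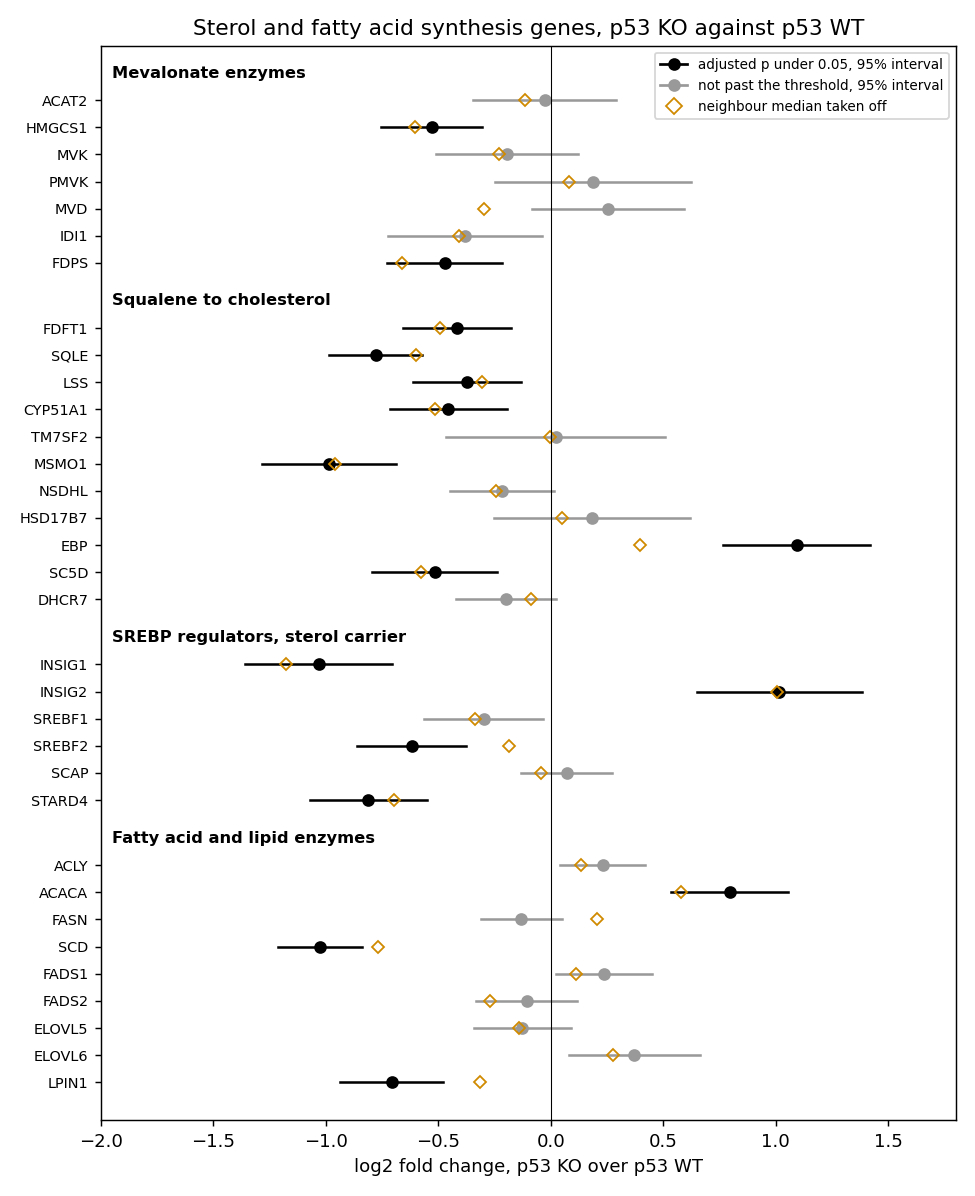
Log2 fold change (p53 KO over p53 WT) of each of the 33 members with its 95% interval from edgeR, in pathway order; black marks an adjusted p under 0.05, grey marks the others, and open diamonds are the values after the median of the 50 nearest expressed genes was taken off. The sterol enzymes lie mostly left of 0, while EBP, INSIG2 and ACACA lie at 1.09, 1.02 and 0.80.

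The groups did not overlap for 21 of 33 members, where this held for 40.8% of all tested genes. In 15 of them p53 KO was lower (21.4% of all tested genes) and in 6 it was higher (19.4%). The median log2 fold change was -0.29 over the 18 sterol enzymes, -0.11 over the 9 fatty acid and lipid enzymes and -0.46 over the 6 regulators, against 0.0052 over all tested genes. No test was made between the arms. The share called lower was 44.4% of sterol enzymes and 22.2% of fatty acid and lipid enzymes, and the share called higher was 5.56% and 11.1%.

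Promoter sequences are shown for 7 members, because SREBP proteins bind DNA next to NF-Y and Sp1, whose sites are known as the CCAAT box and the GC box. They are the INSIG pair, which went opposite ways, and SREBF2, STARD4, HMGCS1, MSMO1 and SCD, which were called lower. Each is the 250 bases before the start given by RefSeq on GRCh38.p14, another build than the GRCh37 of the counts. RefSeq's table lists 2 starts for HMGCS1 and for INSIG2, of which the one listed first is shown and counted. Capitals mark the CCAAT box, the GC box (spelled GGGCGG) and the sterol regulatory element (spelled TCACNCCAC), each searched on both strands. INSIG1 is at chr7:155297628-155297877 on the plus strand and INSIG2 at chr2:118088221-118088470 on the plus strand. SREBF2 is at chr22:41832855-41833104 on the plus strand, and SCD at chr10:100346983-100347232 on the plus strand. STARD4 is at chr5:111512536-111512785 on the minus strand, HMGCS1 at chr5:43313413-43313662 on the minus strand and MSMO1 at chr4:165327419-165327668 on the plus strand.
INSIG1: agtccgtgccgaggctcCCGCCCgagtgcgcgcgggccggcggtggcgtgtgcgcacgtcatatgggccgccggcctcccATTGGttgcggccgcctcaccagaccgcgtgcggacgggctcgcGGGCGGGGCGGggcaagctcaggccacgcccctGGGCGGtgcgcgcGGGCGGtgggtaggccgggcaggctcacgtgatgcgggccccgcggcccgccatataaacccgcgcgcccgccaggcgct
STARD4: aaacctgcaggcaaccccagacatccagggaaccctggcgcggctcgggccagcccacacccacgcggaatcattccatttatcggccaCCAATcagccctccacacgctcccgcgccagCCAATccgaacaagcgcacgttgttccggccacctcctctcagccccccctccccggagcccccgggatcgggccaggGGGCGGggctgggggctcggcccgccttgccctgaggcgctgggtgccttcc
MSMO1: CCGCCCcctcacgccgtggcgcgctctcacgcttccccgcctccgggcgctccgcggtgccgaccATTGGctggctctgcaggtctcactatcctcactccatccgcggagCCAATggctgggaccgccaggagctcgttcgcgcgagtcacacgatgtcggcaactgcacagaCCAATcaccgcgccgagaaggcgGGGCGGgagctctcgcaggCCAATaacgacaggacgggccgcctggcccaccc
HMGCS1: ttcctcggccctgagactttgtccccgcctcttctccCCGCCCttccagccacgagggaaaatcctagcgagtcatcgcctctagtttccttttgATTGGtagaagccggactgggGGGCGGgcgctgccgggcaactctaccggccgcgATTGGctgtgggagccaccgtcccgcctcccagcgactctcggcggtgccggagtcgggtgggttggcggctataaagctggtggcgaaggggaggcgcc
SCD: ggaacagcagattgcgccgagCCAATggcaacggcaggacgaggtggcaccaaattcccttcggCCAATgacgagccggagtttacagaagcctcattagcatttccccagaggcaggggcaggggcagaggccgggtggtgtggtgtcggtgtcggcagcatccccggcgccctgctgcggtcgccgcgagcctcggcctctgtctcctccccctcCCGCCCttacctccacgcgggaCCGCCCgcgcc
SREBF2: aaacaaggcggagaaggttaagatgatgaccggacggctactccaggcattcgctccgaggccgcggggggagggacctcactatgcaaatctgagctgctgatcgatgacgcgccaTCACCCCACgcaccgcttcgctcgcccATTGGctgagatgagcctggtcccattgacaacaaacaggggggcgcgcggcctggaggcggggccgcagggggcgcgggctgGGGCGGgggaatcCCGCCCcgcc
INSIG2: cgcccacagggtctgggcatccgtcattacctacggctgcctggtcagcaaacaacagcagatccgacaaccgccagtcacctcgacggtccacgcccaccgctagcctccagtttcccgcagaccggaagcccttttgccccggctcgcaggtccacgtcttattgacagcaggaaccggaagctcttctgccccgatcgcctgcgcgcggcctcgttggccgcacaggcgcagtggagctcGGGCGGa
Among these 7, MSMO1 held 4 CCAAT boxes, STARD4, HMGCS1 and SCD held 2 each, INSIG1 and SREBF2 held 1 each, and INSIG2 held 0. INSIG1 had 5 GC boxes, of which 1 pair overlaps, and the other promoters had 1 or 2. SREBF2 was the promoter with the sterol regulatory element as spelled.

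Over the longer windows of 250 bases before to 50 after each start, 29 members had at least 1 window, and ACAT2, FDFT1, SQLE and FASN had none in the table. CCAAT was found on either strand in 21 of 29 members (72.4%), against 42.5% of 11596 tested genes and 34.6% of all 35116 windows. It was found in 9 of 11 members called lower, 2 of 3 called higher and 10 of 15 not called. By arm, 13 of 15 sterol enzymes, 5 of 8 fatty acid and lipid enzymes and 3 of 6 regulators held it. GGGCGG was found in 27 of 29 members (93.1%), against 73.4% of tested genes and 45.0% of all windows. TCACNCCAC was found in 1 of 29 members, against 1.52% of tested genes and 1.13% of all windows. Other spellings of the sterol regulatory element were not searched, so these counts do not show that the element is absent. The p53 consensus decamer was found in MVK and INSIG1, 2 of 29 members (6.90%), against 7.84% of tested genes and 6.63% of all windows. A gene was counted as a match if any of its windows held the letters, and matches describe sequence only. Of 35987 genes in the authors' deposited table, 124 carried a mark for a p53 cistrome (0.345%), and 0 of the 33 members were among them.

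The regulators gave the clearest opposite pair. INSIG1, which retains SCAP in the endoplasmic reticulum and is induced by SREBP, had 11.5, 10.6 and 9.92 CPM in p53 KO replicates 1, 2 and 3, against 23.6, 22.8 and 19.1 CPM in p53 WT. INSIG2, its paralog, which SREBP does not induce, had 19.7, 17.3 and 19.6 CPM in p53 KO, against 10.7, 9.72 and 7.43 CPM in p53 WT. The groups were apart for both genes, in opposite directions. The log2 fold changes were -1.03 (SE 0.15, edgeR adjusted p = 0.00019) for INSIG1 and 1.02 (SE 0.17, edgeR adjusted p = 0.000518) for INSIG2, and both were called in each of the 11 alternative analyses. Per kilobase of merged exon, the INSIG1 level divided by the INSIG2 level was 0.629, 0.665 and 0.547 in p53 KO libraries, against 2.4, 2.54 and 2.78 in p53 WT libraries. INSIG2 was thus the more abundant of the pair in every p53 KO library, and INSIG1 in every p53 WT library.

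SREBF2 had 111, 152 and 129 CPM in p53 KO, against 195, 199.5 and 208 CPM in p53 WT. All p53 KO libraries were below all p53 WT libraries, with a log2 fold change of -0.62 (SE 0.11, edgeR adjusted p = 0.00101). Genes next to SREBF2 on chromosome 22 were also lower, with a median of -0.43 over its 50 nearest expressed genes, and after that median was taken off SREBF2 had -0.19 (edgeR adjusted p = 0.294). SREBF1 had 35.6, 34.1 and 38.6 CPM in p53 KO, against 46.7, 38.3 and 48.1 CPM in p53 WT, a log2 fold change of -0.30 (SE 0.12, edgeR adjusted p = 0.0933) that did not pass. Its ranges overlapped by a p53 KO library at 38.6 CPM and a p53 WT library at 38.3 CPM. SCAP, the escort protein, had 109, 106 and 115 CPM in p53 KO and 98.7, 106 and 109 CPM in p53 WT, with an interval of -0.13 to 0.27 on the log2 scale. STARD4, a soluble sterol carrier regulated by SREBP, had 33.9, 34 and 28.4 CPM in p53 KO, against 62.8, 54.2 and 52.2 CPM in p53 WT. Its log2 fold change of -0.81 (SE 0.12, edgeR adjusted p = 0.000216) was called in all 11 alternatives. Per kilobase of exon, SREBF2 exceeded SREBF1 by 3.31, 4.75 and 3.55 times in p53 KO libraries and by 4.43, 5.54 and 4.58 times in p53 WT libraries, and these ratios overlapped.

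**Figure D2:**
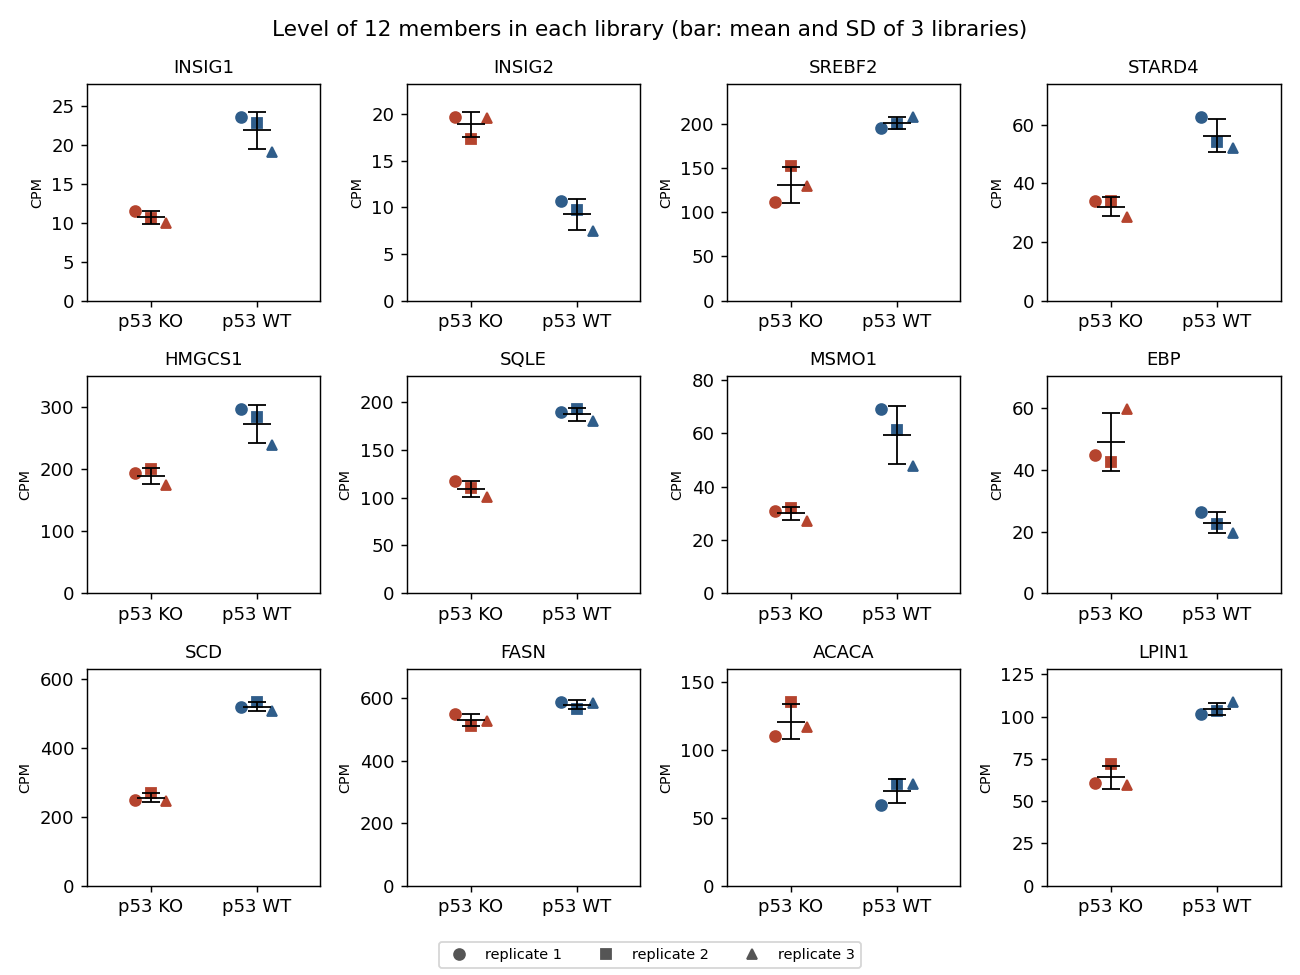
CPM of 12 members in each library (vertical axis from 0), p53 KO in red and p53 WT in blue, with marker shape for the replicate number and bars for the mean and SD of 3 libraries. The groups are apart in all 12 panels, by the least for FASN (549, 511 and 527 CPM in p53 KO and 589, 564 and 586 CPM in p53 WT). The 12 were picked for display. The groups were apart for 21 of all 33 members, against 40.8% of all tested genes.

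In the mevalonate segment 2 of 7 enzymes were called (28.6%), near the 26.5% of all tested genes called in either direction. Both were lower, where 14.4% of all tested genes were called lower. HMGCS1, which makes HMG-CoA, had 193, 199 and 174 CPM in p53 KO, against 296, 283 and 238 CPM in p53 WT, a log2 fold change of -0.53 (SE 0.10, edgeR adjusted p = 0.0017). FDPS, which makes farnesyl diphosphate, had 117, 112 and 117 CPM in p53 KO, against 179.9, 172 and 129 CPM in p53 WT, a log2 fold change of -0.47 (SE 0.12, edgeR adjusted p = 0.00926). The lowest p53 WT library of both genes was replicate 3. IDI1, the isopentenyl diphosphate isomerase, had 20.7, 20.2 and 17.5 CPM in p53 KO and 30.4, 25.5 and 20.1 CPM in p53 WT, and its -0.38 (SE 0.16, edgeR adjusted p = 0.099) did not pass. The mevalonate kinase MVK (-0.20, interval -0.51 to 0.12) and the thiolase ACAT2 (-0.027, interval -0.35 to 0.29) were not called. PMVK, the phosphomevalonate kinase, had 0.19 (interval -0.25 to 0.62) and was not called. MVD, the decarboxylase that makes isopentenyl diphosphate, had 38.2, 44.3 and 46.5 CPM in p53 KO and 43.4, 37.4 and 26.8 CPM in p53 WT, a log2 fold change of 0.25 (interval -0.085 to 0.59). Its neighbours on chromosome 16 had a median of 0.55, and after it was taken off MVD had -0.30 (edgeR adjusted p = 0.224).

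From squalene to cholesterol 6 of 11 enzymes were called lower (54.5%, against 14.4% of all tested genes) and EBP higher (9.09%, against 12.1%). SQLE, squalene epoxidase, an oxygen-requiring step known as a control point, had 118, 109.8 and 101 CPM in p53 KO, against 190.4, 193 and 180.1 CPM in p53 WT. Every p53 KO library was far below every p53 WT library, and the log2 fold change was -0.78 (SE 0.096, edgeR adjusted p = 4.08e-05). MSMO1, which removes methyl groups from lanosterol-derived sterols, had 30.8, 31.9 and 27.3 CPM in p53 KO, against 69.1, 61.3 and 47.7 CPM in p53 WT, a log2 fold change of -0.99 (SE 0.14, edgeR adjusted p = 0.000126). SC5D, a late sterol desaturase, had 25, 27 and 20.7 CPM in p53 KO, against 35.4, 33.7 and 35.3 CPM in p53 WT, a log2 fold change of -0.52 (SE 0.13, edgeR adjusted p = 0.00849). SQLE, MSMO1 and SC5D were called in all 11 alternatives.

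FDFT1, squalene synthase, had 121, 122 and 114 CPM in p53 KO, against 176, 169 and 133 CPM in p53 WT, a log2 fold change of -0.42 (SE 0.11, edgeR adjusted p = 0.0126). LSS, which closes the sterol ring, had 96.9, 106 and 105 CPM in p53 KO, against 146, 140.0 and 112 CPM in p53 WT, a log2 fold change of -0.37 (SE 0.11, edgeR adjusted p = 0.0237). CYP51A1, the lanosterol demethylase, had 90.8, 82.2 and 71.1 CPM in p53 KO, against 114, 124 and 96.7 CPM in p53 WT, a log2 fold change of -0.46 (SE 0.12, edgeR adjusted p = 0.0118). FDFT1, LSS, CYP51A1 and FDPS kept their direction in all 11 alternatives but lost their call without single libraries. Without p53 WT replicate 2, FDPS had -0.42 (edgeR adjusted p = 0.0589) and FDFT1 had -0.38 (edgeR adjusted p = 0.0742). LSS had -0.33 (edgeR adjusted p = 0.115) and CYP51A1 had -0.38 (edgeR adjusted p = 0.0818) without the same library, which left 4 of 18 sterol enzymes called lower in place of 8. Among all tested genes 2288 were then called lower in place of 3227. Without p53 WT replicate 1, FDFT1 had -0.35 (edgeR adjusted p = 0.0567) and LSS had -0.31 (edgeR adjusted p = 0.0973). Without p53 KO replicate 1, LSS had -0.33 (edgeR adjusted p = 0.0953). Pseudogene copies of FDPS, SCD and HSD17B7 are known, and how reads shared with them were counted is not given, so these 3 values are uncertain to that extent.

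EBP, the sterol isomerase, had 44.7, 42.6 and 59.8 CPM in p53 KO, against 26.4, 22.5 and 19.7 CPM in p53 WT, a log2 fold change of 1.09 (SE 0.15, edgeR adjusted p = 0.00012). Genes around EBP on the X chromosome were also higher, with a median of 0.70, and EBP had 0.40 (edgeR adjusted p = 0.0856) after it was taken off. NSDHL, a sterol dehydrogenase also on the X chromosome, had 42.6, 43.9 and 48.8 CPM in p53 KO and 54.1, 51.4 and 51.4 CPM in p53 WT. Its groups were apart, but its log2 fold change of -0.22 (SE 0.11, edgeR adjusted p = 0.166) did not pass, and its neighbours had a median of 0.029. DHCR7, which makes cholesterol in the last step of a branch, had -0.20 (interval -0.42 to 0.022). HSD17B7, a sterol ketoreductase, had 0.18 (interval -0.25 to 0.62), and TM7SF2, a sterol reductase, had 0.022 (interval -0.47 to 0.51). None of DHCR7, HSD17B7 and TM7SF2 was called.

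The fatty acid arm held both a strong decrease and an increase. SCD, which introduces the double bond of oleate, had 249, 269.8 and 246 CPM in p53 KO, against 518, 534 and 506 CPM in p53 WT. The p53 KO libraries lay close together and far below every p53 WT library, and the log2 fold change was -1.03 (SE 0.088, edgeR adjusted p = 1.62e-06). Its neighbours on chromosome 10 had a median of -0.26, and SCD had -0.77 (edgeR adjusted p = 2.6e-05) after it was taken off. ACACA, the cytosolic acetyl-CoA carboxylase that commits carbon to fatty acids, had 110.2, 135 and 117 CPM in p53 KO, against 59.2, 74.7 and 75 CPM in p53 WT. Its log2 fold change was 0.80 (SE 0.12, edgeR adjusted p = 0.00023), and 0.58 (edgeR adjusted p = 0.00335) after the neighbour median of 0.21 was taken off. LPIN1, a phosphatidate phosphatase of glycerolipid synthesis, had 60.7, 71.9 and 59.3 CPM in p53 KO, against 102, 103 and 109 CPM in p53 WT. Its -0.71 (SE 0.11, edgeR adjusted p = 0.000221) became -0.31 (edgeR adjusted p = 0.0519) once the neighbour median of -0.39 on chromosome 2 was taken off.

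FASN, the fatty acid synthase, had 549, 511 and 527 CPM in p53 KO and 589, 564 and 586 CPM in p53 WT, and its -0.13 (SE 0.084, edgeR adjusted p = 0.292) did not pass although the groups were apart. Its neighbours on chromosome 17 had a median of -0.34, and FASN had 0.21 (edgeR adjusted p = 0.105) after it was taken off. ACLY, which releases cytosolic acetyl-CoA from citrate for both arms, had 386, 417 and 388 CPM in p53 KO and 323, 355 and 336 CPM in p53 WT, with 0.23 (SE 0.088, edgeR adjusted p = 0.0701). ELOVL6, an elongase of saturated chains, had 22.4, 20.4 and 20.9 CPM in p53 KO and 16.5, 17.1 and 15.6 CPM in p53 WT, with 0.37 (SE 0.14, edgeR adjusted p = 0.0569). The groups of ACLY and ELOVL6 were apart, and both passed by DESeq2 (adjusted p = 0.0495 and 0.0463). FADS1 and FADS2, desaturases of polyunsaturated fatty acids that are neighbours on chromosome 11, had 0.24 (interval 0.022 to 0.45) and -0.11 (interval -0.33 to 0.12). ELOVL5, an elongase of polyunsaturated chains, had -0.13 (interval -0.34 to 0.088). FADS1, FADS2 and ELOVL5 were not called.

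By level per kilobase of merged exon, ACLY, FASN and SCD ranked highest among the members in both genotypes. In p53 KO libraries ACLY led with 73.9, 79.9 and 74.3 CPM per kb, followed by FASN with 58.7, 54.6 and 56.3 and SCD with 46.4, 50.3 and 46, and these ranges did not overlap. In p53 WT libraries SCD led with 96.6, 99.5 and 94.4 CPM per kb, followed by ACLY with 61.9, 68.1 and 64.5 and FASN with 62.8, 60.2 and 62.6, where ACLY and FASN overlapped. HMGCS1 came next by mean in both genotypes, with 41.1, 42.3 and 37 CPM per kb in p53 KO, where it overlapped ELOVL5, and 62.9, 60.3 and 50.6 in p53 WT, where it overlapped ACLY and FASN. TM7SF2 had the lowest level of all members, with 1.32, 1.42 and 1.59 CPM per kb in p53 KO and 1.53, 1.3 and 1.41 in p53 WT. These levels depend on the exon length taken from the annotation, which can differ from the transcripts used in these cells.

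The arms were also compared library by library, as the mean over genes of log2 CPM minus the p53 WT mean. The sterol arm had -0.26, -0.17 and -0.18 in p53 KO replicates 1, 2 and 3, against 0.15, 0.053 and -0.20 in p53 WT. The p53 WT replicate 3 library, of 24347609 counts, therefore lay inside the p53 KO range, with 17 of 18 sterol enzymes below their p53 WT mean and 15 of 18 at their lowest p53 WT value. By the median over genes the groups were apart, with -0.34, -0.28 and -0.25 in p53 KO and 0.15, 0.058 and -0.20 in p53 WT. Without that library 9 sterol enzymes were called lower and 1 higher, IDI1 joined the calls at -0.52 (edgeR adjusted p = 0.0357), and the median was -0.37. In the p53 KO library of the lowest depth, replicate 3, the sterol mean lay between those of the other p53 KO libraries, and 7 of 18 sterol enzymes had their lowest p53 KO value. The part of depth in the position of p53 WT replicate 3 was not tested. The fatty acid arm had -0.093, 0.024 and -0.088 in p53 KO, against -0.036, 0.056 and -0.02 in p53 WT, and the groups overlapped in this mean. Gene by gene, the groups did not overlap for 7 of 9 fatty acid and lipid enzymes (3 lower and 4 higher in p53 KO). They did not overlap for 10 of 18 sterol enzymes (9 lower and 1 higher), against 40.8% of all tested genes. The regulators had -0.28, -0.26 and -0.29 in p53 KO, against 0.075, -0.016 and -0.06 in p53 WT, with the groups apart.

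**Figure D3:**
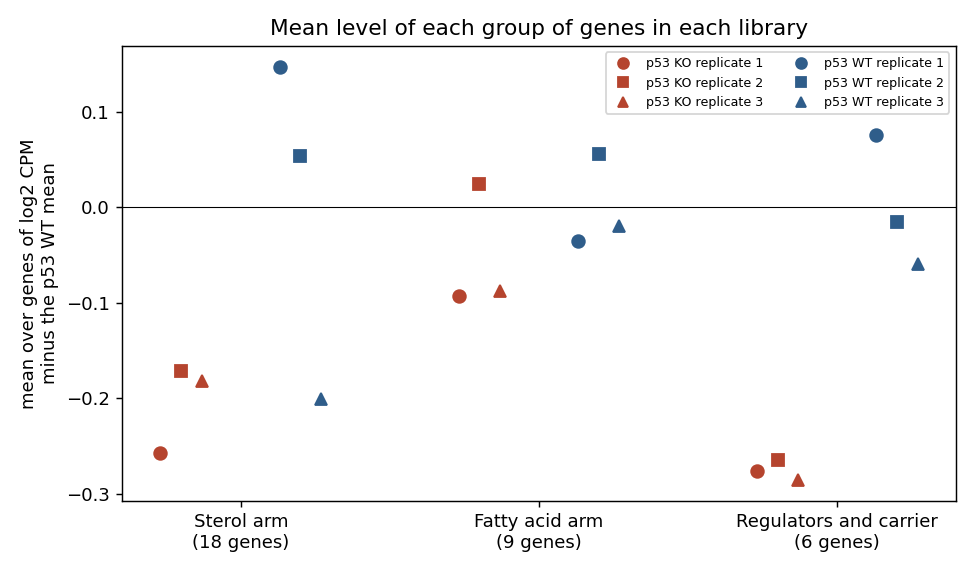
Mean over the 18 sterol, 9 fatty acid and lipid, and 6 regulator genes of log2 CPM minus the p53 WT mean (vertical axis) in each library, p53 KO in red left of p53 WT in blue. The p53 WT replicate 3 library lies at -0.20 in the sterol arm, inside the p53 KO range. The mean of the fatty acid arm, whose genes went both ways, shows no separation.

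Chromosomal neighbours moved with several members, with medians from -0.43 (SREBF2) to 0.70 (EBP) on the log2 scale. The neighbour median exceeded 0.3 in size for 5 of 33 members, MVD, EBP, SREBF2, FASN and LPIN1, of which EBP, SREBF2 and LPIN1 were called. After neighbour medians were taken off, 12 of the 16 calls held and no member was added, where 19.9% of all tested genes were called. Of these 10 were lower (10.4% of all tested genes) and 2 higher (9.51%). The calls lost were LSS, EBP, SREBF2 and LPIN1, with LSS at -0.31 (edgeR adjusted p = 0.0711). All 18 sterol enzymes then gave 7 lower and 0 higher calls, and the 9 fatty acid and lipid enzymes 1 lower (SCD) and 1 higher (ACACA). The sterol median was -0.30 and the fatty acid median turned to 0.11. Copy number was not measured in these files.

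**Figure D4:**
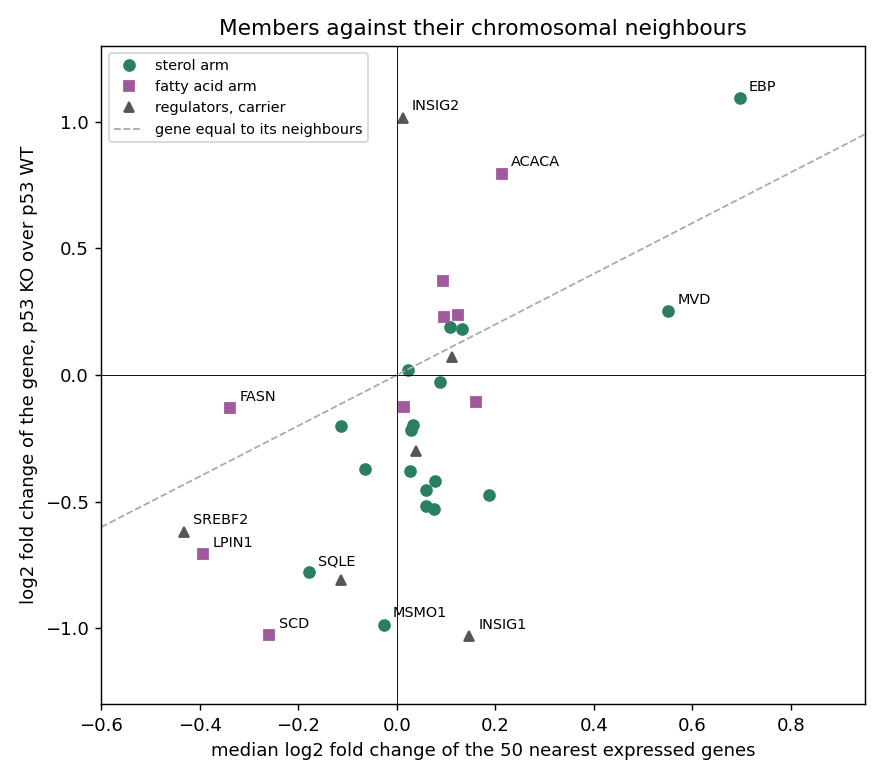
Log2 fold change (p53 KO over p53 WT) of each member (vertical axis) against the median of its 50 nearest expressed genes (horizontal axis); the dashed line marks equality. EBP and SREBF2 have neighbour medians of 0.70 and -0.43, while INSIG1, INSIG2 and MSMO1 differ most from neighbours at 0.15, 0.012 and -0.026.

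Genes around the pathway that are not members were read from 5 further lists. Of 8 genes for sterol uptake, esterification and carriers, 4 were called lower (50%, against 14.4% of all tested genes) and 0 higher, with a median of -0.39. NPC1, which exports cholesterol from lysosomes, had 49.4, 47.7 and 42.2 CPM in p53 KO, against 98.1, 103 and 105 CPM in p53 WT, with -1.13 (SE 0.10, edgeR adjusted p = 3.01e-06). NPC2, its soluble partner, had -0.90 (SE 0.13, edgeR adjusted p = 0.000195), but -0.0022 after its neighbour median on chromosome 14 was taken off, and LIPA, the lysosomal lipase, had -0.91 (SE 0.15, edgeR adjusted p = 0.000559) and -0.36 after the same step. Neither NPC2 nor LIPA was called after it (edgeR adjusted p = 0.993 and 0.128), so 2 of the 4 lower calls held. STARD3 (-0.44, edgeR adjusted p = 0.00792) and OSBPL5 (-0.46, edgeR adjusted p = 0.0288) were called lower only after that step, so the list again had 4 lower calls. Before the step SOAT1, which esterifies cholesterol, was the other one called, at -0.49. The list had 3 lower calls without p53 WT replicate 2, and 4 lower calls and 1 higher call by DESeq2. Of 8 genes for SREBP cleavage and stability 2 were called lower and 2 higher (25% each, against 14.4% and 12.1% of all tested genes). FBXW7, a ubiquitin ligase subunit that targets nuclear SREBP, had -0.70 (SE 0.17, edgeR adjusted p = 0.00618), and RNF139, an endoplasmic reticulum ligase, had -0.59 (SE 0.13, edgeR adjusted p = 0.00401). MBTPS1, the protease that starts SREBP cleavage, had 0.55 (SE 0.097, edgeR adjusted p = 0.000727), on chromosome 16 with a neighbour median of 0.58. After that median was taken off MBTPS1 had -0.026 and was not called.

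Of 6 genes of the LXR pathway and cholesterol export, 0 were called at an adjusted p under 0.05 by edgeR or by DESeq2, and 0 had an unadjusted p under 0.05 in either. An unadjusted edgeR p was under 0.05 for 1 gene after neighbour medians were taken off, and for 1 without p53 KO replicate 2. ABCA1, the cholesterol exporter, had 1.31, 0.927 and 1.3 CPM in p53 KO and 1.7, 1.07 and 1.68 CPM in p53 WT, with an interval of -1.23 to 0.57 on the log2 scale. Of 18 other acyl chain enzymes 17 were tested, and 3 were called lower and 2 higher, where 26.5% of all tested genes were called. The 2 higher calls became 0 after neighbour medians were taken off, and 0 without p53 KO replicate 1, p53 KO replicate 2, p53 WT replicate 1, p53 WT replicate 2 or p53 WT replicate 3. The 3 lower calls became 4 after neighbour medians were taken off, where 10.4% of all tested genes were called lower. They were also 4 with no filter and without p53 KO replicate 3. ELOVL1, an elongase of very long chains, had 74.9, 61.9 and 70.8 CPM in p53 KO, against 133, 120.5 and 122 CPM in p53 WT, with -0.85 (SE 0.10, edgeR adjusted p = 4.06e-05). Of 9 genes of the polyisoprenoid and ubiquinone branch 1 was called, lower (11.1%, against 14.4% of all tested genes). It was PGGT1B, at -0.53 (edgeR adjusted p = 0.0224). That call was lost without p53 WT replicate 2, which left 0 in the list, and after the neighbour median was taken off (edgeR adjusted p = 0.0838).

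The authors' deposited table listed all 33 members and, with its sign turned to p53 KO over p53 WT, gave each the same direction as here. It comes from the same study, so the shared direction is not independent support. Some values lie near 0, such as ACAT2 with 0.0024 as p53 WT over p53 KO in that table. At the authors' adjusted p under 0.05 that table called 15 members, 11 lower and 4 higher in p53 KO, of which 14 were also called here. The share of all its genes called is not given here, so these counts have no background beside them. FDPS and FDFT1 were called here and not in the authors' deposited table, and ELOVL6 only there.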

How the data were processed

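Raw counts per gene symbol for 6 libraries were deposited, and no column went unused (0 columns). The submitters' processing notes name fastp 0.21.0 together with HISAT2 2.1.0, DESeq2 1.3.6 and the build GRCh37 (hg19). Neither a counting tool nor an annotation or strand setting is given in the sources, so overlapping or antisense genes are uncertain. In the authors' deposited table each gene has a mean signal over normalised libraries, a log2 fold change and its error, a test score, p-values and a mark for a p53 cistrome. That log2 fold change is p53 WT over p53 KO, read from the sign of CDKN1A.

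The deposited counts went into edgeR 4.0.16 (R 4.3.3; quasi-likelihood F-test, robust, TMM, filterByExpr, genotype as the only term) over 22352 genes with Benjamini-Hochberg adjustment. An SE is the absolute log2 fold change over the root of F, and intervals are 95% from the same fit. Log2 CPM used a prior count of 2. Alternatives were RLE factors, no filter, DESeq2 1.42.0, the replicate number as a block, each library left out, and an offset by the median log2 fold change of the 50 nearest of 12104 protein-coding genes with at least 2 CPM, ordered by RefSeq on GRCh38.p14. Exon lengths came from GENCODE 29. HACD2 and HACD3 were matched by RefSeq synonym. The edgeR and neighbour median code was tested on simulated data. A count of 0 allows up to 3 counts, or 0.0376 to 0.147 CPM, for counting error only.

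Members, lists and the rule for named genes (every member called or regulating SREBP, and further genes called with a log2 fold change of at least 0.58 in size) were chosen with earlier results of these data known. SOAT1, MBTPS1, PGGT1B, ABCA1, STARD3 and OSBPL5 were named after their values were seen. The transcript of the targeted gene and some other genes under this rule are not reported here.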

Additional observations from a re-analysis of the deposited data

How the results depend on the processing

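All 16 calls among the members held with RLE factors and with no filter, and DESeq2 added ACLY and ELOVL6, which gave 18 calls in all, 5 members higher in place of 3, and 5 fatty acid and lipid enzymes called with 3 of them higher, in place of 3 and 1. The neighbour median left 0 sterol enzymes higher in place of 1, left 1 fatty acid and lipid enzyme lower in place of 2, turned the fatty acid median from -0.11 to 0.11 and moved the difference between arm medians (fatty acid minus sterol) from 0.19 to 0.41. With each library left out in turn, sterol enzymes called ranged from 5 to 10 and those lower from 4 to 9, lowest without p53 WT replicate 2. Calls among all tested genes were also fewest without that library, 4160 in place of 5924, with 2288 lower in place of 3227. Fatty acid and lipid enzymes higher ranged from 1 to 2, with ACLY added at 0.26 without p53 KO replicate 3. The fatty acid median ranged from -0.13 to -0.021 and the difference between arm medians from 0.11 to 0.24. Same-numbered libraries deviated from their group means with correlations of 0.0098, 0.078 and -0.12. Differently numbered libraries had -0.27 to 0.22. With 3 libraries per group these values cannot tell whether same-numbered libraries were paired. Total counts fell from replicate 1 to replicate 3 in both genotypes. With the replicate number as a block 15 of the 16 calls held and LSS was lost (-0.36, adjusted p = 0.0554 by edgeR), with 5159 genes called in place of 5924. For other members the cause of lost calls was not tested. PMVK, TM7SF2 and HSD17B7 had the widest intervals among the members.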
